A study of Zea mays with 12 samples.

Results

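The nitrate, peptide and ammonium transporters of maize root were taken as every gene whose deposited description contains NRT1, PTR family, peptide transporter, nitrate transporter or ammonium transporter. The high-affinity genes nrt2, nrt2.2 and NAR2.1 and all oligopeptide transporters were left out. The rule gave 36 of the 37385 genes listed: 18 genes of the NRT1/PTR family (NPF), 6 ammonium transporters, 3 nitrate transporters and 9 peptide transporters. It used no measured value, but the members were chosen with earlier results of these data known. NAR2.2, which has the same description as NAR2.1, was kept. The roots came from 40-day-old plants of the maize line DengHai605, labelled as an inbred line, and their total RNA was sequenced in 12 libraries in 4 groups of 3. The groups were nitrogen (N) deficiency, potassium (K) deficiency, phosphorus (P) deficiency and a control with normal N, P and K supply, and no genetic change is labelled in any of them. How low the missing nutrient was, for how long, and in what medium the plants grew, is not stated in the labels. The libraries in a group are numbered 1_3, 4_6 and 7_9, and no label ties these numbers to separate plants, so that p-values measure the spread between these libraries, which may be technical.

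Plant roots take up nitrogen mainly as nitrate and ammonium. Nitrate enters through low-affinity carriers of the NPF and through high-affinity NRT2 carriers, which need the small partner protein NAR2, while AMT and related proteins carry ammonium. NPF proteins share a fold with peptide transporters, and in Arabidopsis different members carry nitrate, dipeptides or plant hormones. Several of these genes are known there to be switched by the plant's nitrogen status, and the question put to the data was how their transcripts differed when N, K or P was short.

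N deficiency changed 12 of the 33 transporter genes that reached the expression minimum (36.4%, against 19.0% of all 24311 tested genes). Of these 9 were higher than in the control (9.63% of all tested genes were) and 3 lower (9.33%). Among the genes that rose were 3 ammonium transporters, an NPF8.3 gene that reached 58.1 FPKM, and both NPF5.2 genes. FPKM, the deposited unit, is a fragment count scaled to transcript length and library size. The 3 that fell were the nitrate transporter partner NAR2.2, the peptide transporter LOC100281564 and the NPF6.2 gene LOC100383494, which was barely detected in N-deficient roots. P deficiency changed 11 of 33 (33.3%, against 23.4% of all tested genes), 5 higher (13.0% of all tested genes were) and 6 lower (10.4%). K deficiency changed 3 of 33 (9.09%, against 8.72%), close to the share among all genes, with 2 higher (4.83% of all tested genes) and 1 lower (3.89%).

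A gene was called changed at a Benjamini-Hochberg adjusted p under 0.05 in limma on log2(FPKM + 1), fitted over all 12 libraries. Genes with at least 0.5 FPKM in at least 3 libraries were tested. Log2 fold changes are on that scale and understate the change of low genes, whereas folds are ratios of mean FPKM. The 3 members below the minimum were the ammonium transporter LOC100273369, the NPF4.6 gene LOC100279849 (0 to 8 reads per library) and the PTR2-B gene LOC100283508, listed at 0 in every library. Of the rest, 27 had at least 1 FPKM in every library. The median log2 fold change of the 33 tested members was 0.38 in N deficiency, 0.22 in K deficiency and 0.04 in P deficiency, beside medians over all tested genes of 0.04, 0.07 and 0.08 in the same order. Of the 33, 15 were called in no comparison with the control (45.5%, against 65.6% of all tested genes). The 3 comparisons share the same control libraries.

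**Figure D1:**
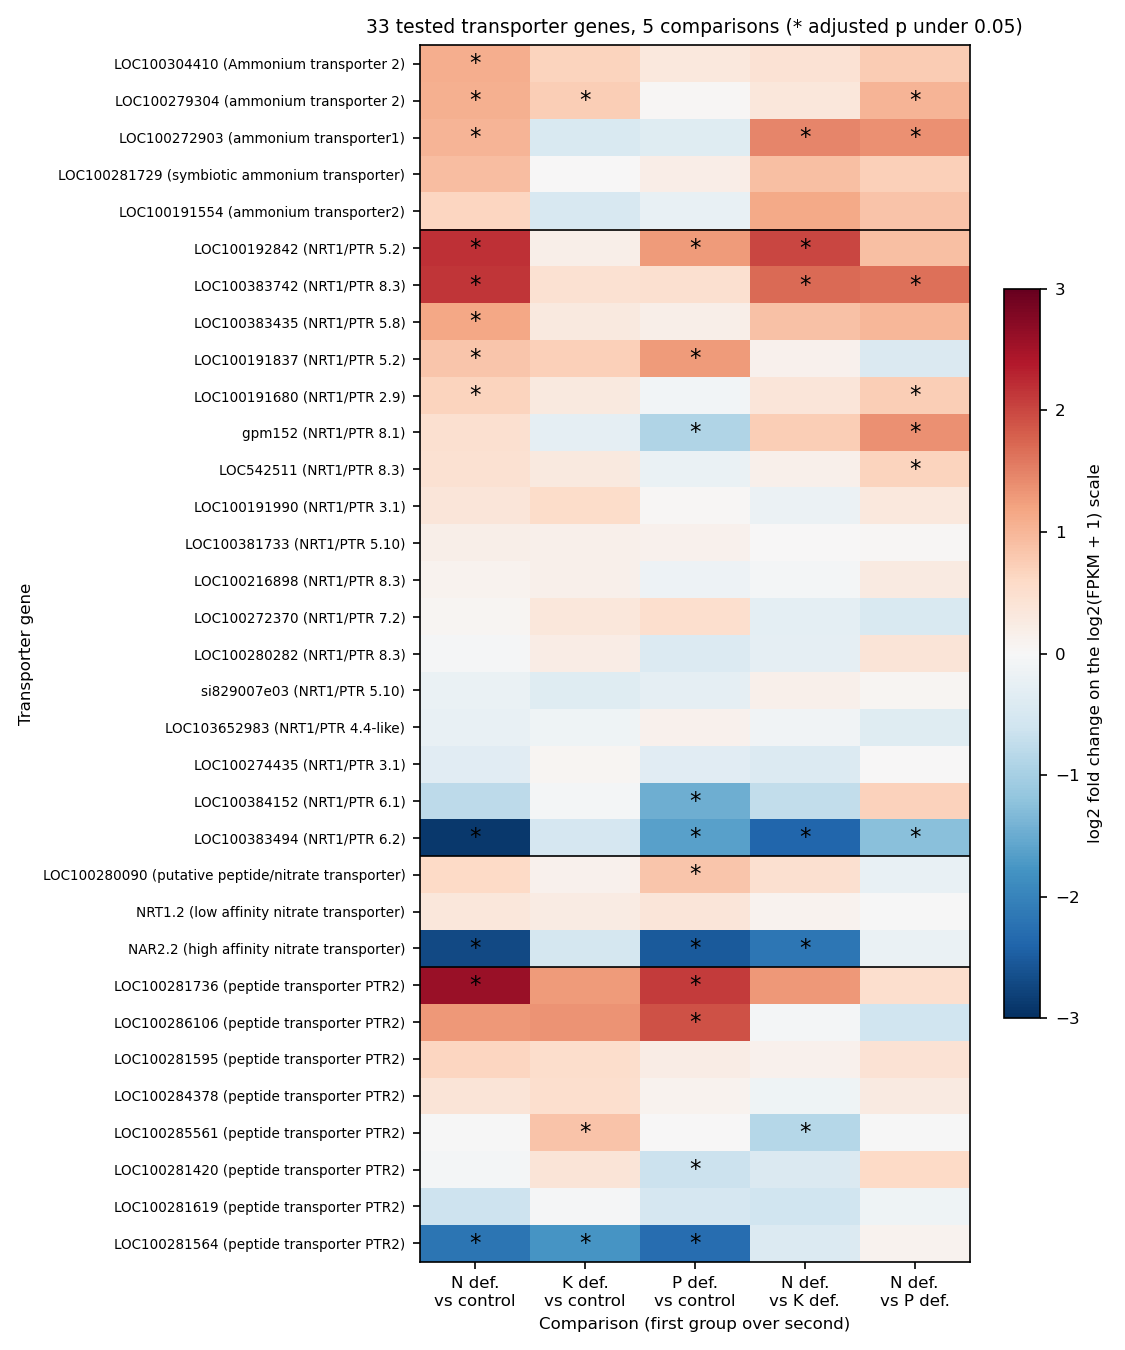
Heat map of log2 fold changes on the log2(FPKM + 1) scale for the 33 tested transporter genes (rows, with their deposited descriptions, grouped by class) in 5 comparisons (columns, first group over second; def. stands for deficiency). Red is higher and blue lower in the first group, and stars mark an adjusted p under 0.05. The N deficiency column holds 12 stars, the K deficiency column 3 and the P deficiency column 11.

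Recovered depth was 17300516 to 17958165 reads per library in N deficiency, 17199476 to 18354543 in K deficiency, 15735072 to 17171166 in P deficiency and 17843853 to 18465979 in the control. Of 16 root marker genes, 14 to 16 had a mean of at least 1 FPKM in each group. The summed level of 3 root cap markers was 91.3 to 956 FPKM in N deficiency, 190 to 267 in K deficiency, 98.5 to 352 in P deficiency and 127 to 351 in the control, and N-deficient replicate 7_9 was the lowest of all 12 libraries. The 4 vascular markers summed to 255 to 340 FPKM in N deficiency, 283 to 431 in K deficiency, 123 to 228 in P deficiency and 127 to 188 in the control. The 34 green tissue markers summed to 13.6 to 22.5, 27.2 to 33, 24.6 to 35.2 and 65.4 to 82.2 FPKM in the same order of groups, with 6 to 10 of them at 0 in all libraries of a group. The 48 seed or embryo markers summed to 621 to 663, 687 to 730, 618 to 631 and 1150 to 1585 FPKM, with 21 to 25 of them at 0 throughout a group. The largest control excesses on this list were of late embryogenesis abundant genes. AY106518, LOC100286287 and LOC103641198 averaged 277, 236 and 125 FPKM in the control and at most 17.1, 13.6 and 2.68 FPKM in a deficient group. Another such gene, si946046b11, was highest in N deficiency (158 FPKM, 114 in the control). The part of these shifts in the results below was not tested. In whole-root RNA, fewer cells of a type and less RNA per cell cannot be told apart.

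Genes described as ammonium transporters were the class with the highest share of calls in N deficiency. Of 5 tested genes 3 rose (60%, against 9.63% of all tested genes). The 5 include LOC100281729, whose description is open to doubt (below) and which was not called. The fitted change of each of the 5 was positive, as for 54.5% of all tested genes, and their median log2 fold change was 1.02, beside 0.04 over all tested genes. K deficiency raised 1 of the 5 (20%, against 4.83% of all tested genes). P deficiency changed 0 of 5 in limma (0%, against 23.4% of all tested genes). Of the same 5 genes 0 had an unadjusted p under 0.05, and 0 passed with voom on recovered reads or in the authors' deposited table.

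LOC100279304, described as ammonium transporter 2, had 32.4, 36.4 and 30.6 FPKM in N deficiency, 28.6, 22.8 and 27.0 FPKM in K deficiency, 13.9, 14.9 and 18.8 FPKM in P deficiency and 14.4, 13.4 and 18.2 FPKM in the control. The N and K libraries lay above each control library, while the P and control libraries overlapped. It was 2.16-fold higher in N deficiency than in the control (log2 fold change 1.07, SE 0.154, adjusted p = 0.000646) and 1.7-fold higher in K deficiency (0.74, adjusted p = 0.0132). The K call was lost without K-deficient replicate 1_3, without control 1_3 or 4_6, with voom and in the authors' deposited table (adjusted p 0.00835 to 0.322 over the alternatives). N deficiency also exceeded P deficiency, by 2.09-fold (adjusted p = 0.00232). Its libraries all lay above the K-deficient ones, but that difference did not pass (1.27-fold, adjusted p = 0.213).

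LOC100272903, described as ammonium transporter1, separated N deficiency from every other group. Its values were 7.84, 10.4 and 10.1 FPKM in N deficiency, 4.18, 2.02 and 2.34 FPKM in K deficiency, 2.99, 2.59 and 3.38 FPKM in P deficiency and 3.72, 5.55 and 3.29 FPKM in the control. Each N-deficient library was above all 9 others. The level in N deficiency was 3.3-fold that in K deficiency (adjusted p = 0.00186), 3.15-fold that in P deficiency (adjusted p = 0.00337) and 2.25-fold that in the control (log2 fold change 1.02, SE 0.22, adjusted p = 0.0077). These 3 calls held under every alternative tried.

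LOC100304410 was the remaining ammonium transporter to rise, also described as Ammonium transporter 2. It had 5.196, 1.99 and 4.77 FPKM in N deficiency, 3.08, 2.68 and 1.91 FPKM in K deficiency, 1.36, 2.69 and 1.48 FPKM in P deficiency and 1.31, 1.19 and 1.16 FPKM in the control. The control libraries were tight and lay below all others, and N-deficient replicate 4_6 lay within the range of the K and P libraries. The N deficiency mean was 3.26-fold that of the control (log2 fold change 1.10, SE 0.269, adjusted p = 0.0151), a call lost without N-deficient replicate 1_3 or 7_9 (adjusted p = 0.00166 to 0.0613 over the alternatives).

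The remaining ammonium transporters did not pass. LOC100191554 had 5.998, 3.95 and 4.59 FPKM in N deficiency, 2.56, 2.02 and 0.735 FPKM in K deficiency, 2.36, 0.825 and 4.23 FPKM in P deficiency and 2.896, 1.97 and 3.42 FPKM in the control. Its N-deficient libraries were all above the control libraries, but the difference did not pass (adjusted p = 0.252). LOC100273369, ammonium transporter3, was near 0, with 2, 6 and 3 reads in the N-deficient libraries, 2, 0 and 0 in the K-deficient, 1, 1 and 6 in the P-deficient and 1, 0 and 0 in the control libraries.

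LOC100281729 is described as a symbiotic ammonium transporter and had the highest mean of all members. In soybean the protein first given that name, SAT1, is a membrane-bound bHLH transcription factor. LOC100281729 was counted in its class and in the summed levels by its description, and whether it carries ammonium was not tested. It had 122, 159 and 139 FPKM in N deficiency, 36.99, 103 and 106 FPKM in K deficiency, 71.1, 76.7 and 111 FPKM in P deficiency and 55.6, 144 and 49.0 FPKM in the control. Control replicate 4_6 lay far above the other control libraries and within the N-deficient range. The difference between N deficiency and the control did not pass (1.69-fold, adjusted p = 0.181).

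**Figure D2:**
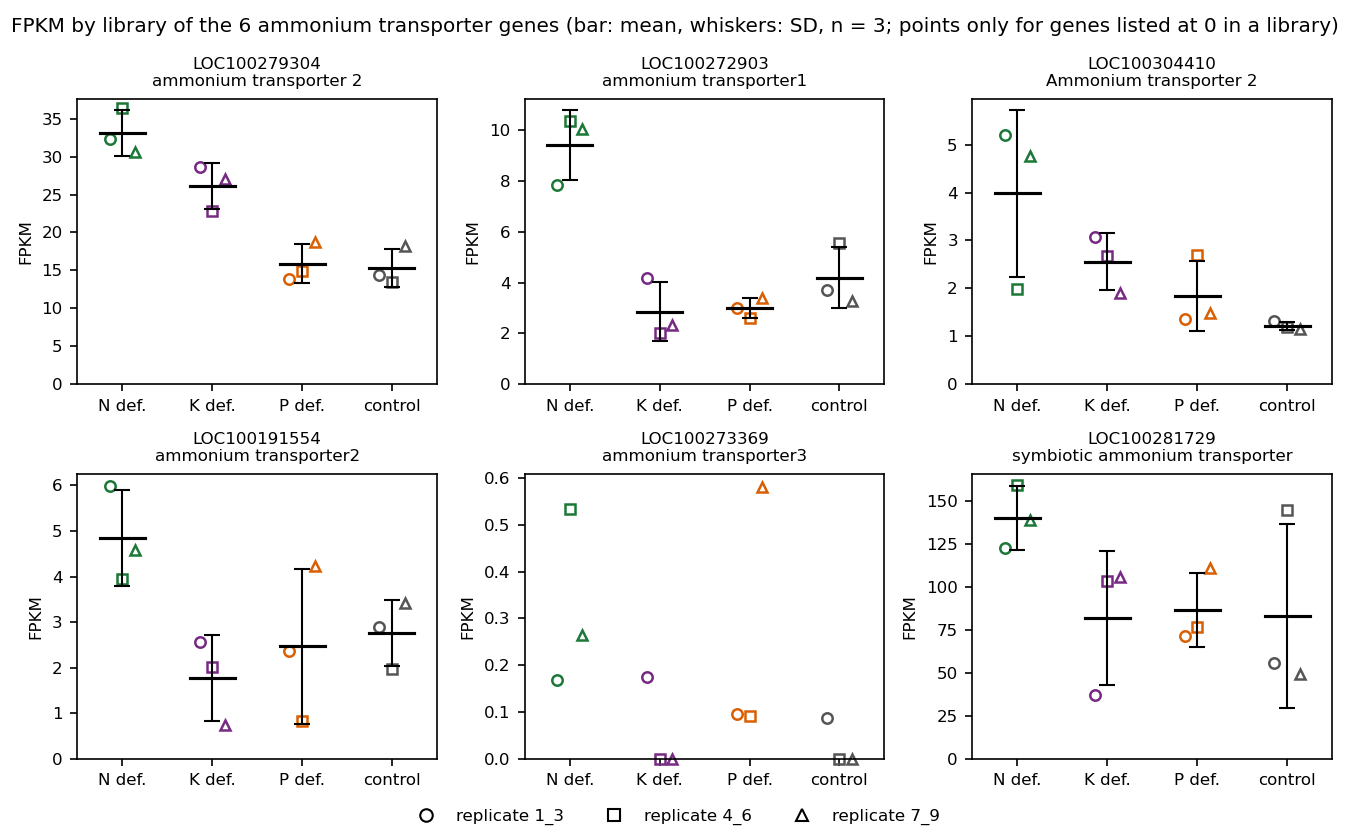
FPKM (vertical axis, from 0, its scale differing by panel) of the 6 ammonium transporter genes in N, K and P deficiency (def.) and the control; each symbol is a library, with its shape giving the replicate label. Bars and whiskers are the mean and SD of 3 libraries, left out for LOC100273369, which is listed at 0 in some. For LOC100272903 the N-deficient libraries, at 7.84 to 10.4 FPKM, lie above all others.

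NAR2.2 is among the 3 genes described as nitrate transporters, of which N deficiency lowered 1 (33.3% called, against 19.0% of all tested genes) and P deficiency raised 1 and lowered 1 (66.7%, against 23.4%). NAR2 proteins are the partners that NRT2 carriers need at the plasma membrane. NAR2.2 had 2.93, 4.77 and 18.1 FPKM in N deficiency, 27.4, 31.7 and 41.9 FPKM in K deficiency, 5.46, 5.85 and 13.5 FPKM in P deficiency and 70.2, 46.5 and 34.5 FPKM in the control. N and P libraries were low, with N-deficient replicate 7_9 the highest of them, and all lay below the K and control libraries, which overlapped. The control mean was 5.87-fold that in N deficiency (log2 fold change -2.71, SE 0.516, adjusted p = 0.00385) and 6.08-fold that in P deficiency (-2.51, SE 0.516, adjusted p = 0.00676). N deficiency was also below K deficiency (-2.18, adjusted p = 0.0224), a call lost without any of the K-deficient libraries or without N-deficient replicate 1_3 or 4_6 (adjusted p = 0.00208 to 0.088 over the alternatives).

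Its paralogue NAR2.1, outside the member list, went the other way in N deficiency. NAR2.1 averaged 320 ± 22.5 FPKM in N deficiency, 131 ± 21.4 in K deficiency, 128 ± 52.4 in P deficiency and 104 ± 6.33 in the control (SD, n = 3 each), 3.07-fold higher in N deficiency than in the control (log2 fold change 1.61, adjusted p = 0.000966). The carriers nrt2 and nrt2.2 rose as well, nrt2 averaging 55.5 FPKM in N deficiency against 2.35 FPKM in the control and nrt2.2 averaging 33.1 FPKM against 1.62 FPKM. Calls for these carriers were not confined to N deficiency. In P deficiency nrt2 was called too, a call lost with a pseudocount of 10. For nrt2.2 both K and P deficiency were called, each call being lost in 8 of 15 alternatives.

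NRT1.2, described as a low affinity nitrate transporter, stayed within a narrow range, with 9.93, 10.9 and 10.2 FPKM in N deficiency, 9.99, 8.88 and 9.99 FPKM in K deficiency, 8.98, 13.5 and 9.50 FPKM in P deficiency and 7.77, 6.74 and 9.67 FPKM in the control. No comparison passed for this gene, named after its values were seen. LOC100280090, a putative peptide/nitrate transporter likewise named after its values were seen, was low throughout. It had 0.686, 1.17 and 0.314 FPKM in N deficiency, 0.358, 0.150 and 0.154 FPKM in K deficiency, 1.94, 0.692 and 0.511 FPKM in P deficiency and 0.0600, 0.123 and 0.143 FPKM in the control. All control libraries were lowest in FPKM. In recovered reads the control (12, 26 and 36) overlapped N deficiency (68, 120 and 34) and K deficiency (36, 17 and 38), but not P deficiency (210, 64 and 80). The difference passed in P deficiency (log2 fold change 0.82, SE 0.244, adjusted p = 0.033). That call was lost in 7 alternatives, among them leaving out P-deficient replicate 1_3 or any control library, the fit of the 6 compared libraries and the authors' deposited table (adjusted p 0.0154 to 0.104).

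In the NPF, N deficiency raised 5 of 17 tested genes and lowered 1 (35.3% called, against 19.0% of all tested genes). P deficiency raised 2 and lowered 3 (29.4%, against 23.4%, near the share of all genes). K deficiency changed 0 of 17 in limma (0%, against 8.72% of all tested genes). Of the same 17 genes 1 had an unadjusted p under 0.05, and 0 passed with voom or in the authors' deposited table. The 2 genes with the largest rises in N deficiency carry the descriptions NPF5.2 and NPF8.3. Because 4 genes are described as NPF8.3 and 8 tested genes as peptide transporters, reads of near-identical copies could have been split between them, and no source used here says how the authors counted such reads.

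LOC100383742, an NPF8.3 gene, differed between N deficiency and each other group. Arabidopsis NPF8.3, also called PTR2, is a dipeptide transporter of the vacuole membrane. LOC100383742 had 48.4, 64.2 and 61.7 FPKM in N deficiency, 13.1, 22.1 and 17.4 FPKM in K deficiency, 15.9, 15.6 and 22.5 FPKM in P deficiency and 8.82, 20.7 and 10.1 FPKM in the control. The lowest N-deficient library was far above the highest of all others, which overlapped among themselves. Its mean in N deficiency was 4.4-fold that in the control (log2 fold change 2.14, SE 0.287, adjusted p = 0.000414), 3.31-fold that in K deficiency (adjusted p = 0.00388) and 3.23-fold that in P deficiency (adjusted p = 0.00535), each call holding under every alternative. No other NPF8.3 gene passed in N deficiency against the control. LOC100280282 averaged 10.8 ± 1.34 FPKM in N deficiency and 11.03 ± 0.782 FPKM in the control, and LOC100216898 averaged 4.55 ± 0.524 FPKM and 4.15 ± 0.199 FPKM (SD, n = 3 each). They were named after their values were seen. The fourth, LOC542511, averaged 0.736 ± 0.357 FPKM in N deficiency and 0.242 ± 0.0807 FPKM in the control (SD, n = 3 each), 3.04-fold higher with no overlap between the groups, but the difference did not pass (adjusted p = 0.118). It had 95 reads in the N-deficient libraries together and 9 in the P-deficient ones. Its log2 fold change of N over P deficiency was 0.67 (adjusted p = 0.046), a call lost in 8 alternatives, among them the replicate block and leaving out any P-deficient library or N-deficient replicate 1_3 or 7_9 (adjusted p 0.02 to 0.139).

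Both NPF5.2 genes rose in N and in P deficiency. Arabidopsis NPF5.2, or PTR3, is known as a peptide transporter induced by wounding and stress. LOC100192842 had 15.4, 9.54 and 7.98 FPKM in N deficiency, 3.04, 2.57 and 0.670 FPKM in K deficiency, 3.62, 5.82 and 6.49 FPKM in P deficiency and 1.52, 1.12 and 2.08 FPKM in the control. The N libraries were highest, the P libraries intermediate, and the K libraries overlapped the control. It was 6.98-fold higher in N deficiency than in the control (log2 fold change 2.19, SE 0.339, adjusted p = 0.00107) and 3.37-fold higher in P deficiency (1.28, SE 0.339, adjusted p = 0.0212). The P call was lost without P-deficient replicate 4_6 or 7_9 or control 1_3 or 4_6 (adjusted p = 0.00109 to 0.0742 over the alternatives). N deficiency exceeded K deficiency 5.25-fold (adjusted p = 0.00381), and its excess over P deficiency did not pass (adjusted p = 0.103).

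LOC100191837, the other NPF5.2 gene, was highest in P deficiency. It had 10.6, 10.996 and 11.5 FPKM in N deficiency, 11.998, 9.98 and 8.40 FPKM in K deficiency, 18.2, 11.4 and 17.2 FPKM in P deficiency and 4.21, 6.09 and 7.25 FPKM in the control. All 9 deficient libraries were above all control libraries. The rise was 1.89-fold in N deficiency (log2 fold change 0.84, SE 0.206, adjusted p = 0.015, lost without control 1_3 at 0.0673) and 2.67-fold in P deficiency (1.28, SE 0.206, adjusted p = 0.00174), while K deficiency, at 1.73-fold, did not pass (adjusted p = 0.0553).

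The NPF5.8 gene LOC100383435 had 8.24, 3.31 and 3.93 FPKM in N deficiency, 1.95, 2.94 and 1.78 FPKM in K deficiency, 1.12, 2.92 and 2.02 FPKM in P deficiency and 2.40, 1.44 and 1.09 FPKM in the control. Arabidopsis NPF5.8 is known as a nicotianamine exporter. The N-deficient libraries were above all others, with replicate 1_3 standing far above the other two. The rise over the control was 3.14-fold (log2 fold change 1.17, SE 0.313, adjusted p = 0.0233), a call lost without N-deficient replicate 1_3, without control 4_6 or 7_9, and in the authors' deposited table (adjusted p 0.0161 to 0.0787 over the alternatives).

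LOC100191680, described as NPF2.9, was the NPF gene with the highest mean. In Arabidopsis NPF2.9, or NRT1.9, loads nitrate into root phloem. LOC100191680 had 109, 129 and 87.6 FPKM in N deficiency, 83.6, 85.004 and 79.2 FPKM in K deficiency, 54.6, 79.2 and 59.5 FPKM in P deficiency and 59.2, 84.8 and 60.7 FPKM in the control. The N-deficient libraries were the highest, replicate 7_9 only just, while the P-deficient and control libraries overlapped. N deficiency was 1.59-fold above the control (log2 fold change 0.66, SE 0.192, adjusted p = 0.0327) and 1.68-fold above P deficiency (0.74, adjusted p = 0.0324). The call against the control was lost in 6 alternatives, among them without N-deficient replicate 1_3 or 4_6 or control 1_3 or 7_9 and in the authors' deposited table (adjusted p 0.0105 to 0.129). The call against P deficiency was lost without N-deficient replicate 1_3 or 4_6, without P-deficient replicate 1_3 or 7_9, and in the fit of the 6 compared libraries (adjusted p = 0.0134 to 0.118).

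The NPF6.2 gene LOC100383494 was barely detected in N deficiency. Arabidopsis NPF6.2, or NRT1.4, is a nitrate transporter of the leaf petiole. LOC100383494 had 0.0498, 0.0523 and 0 FPKM in N deficiency, 6.26, 4.25 and 3.12 FPKM in K deficiency, 1.96, 1.15 and 1.39 FPKM in P deficiency and 3.44, 7.71 and 10.5 FPKM in the control. The N-deficient libraries lay below all P-deficient ones, and these below all K-deficient and control ones. The 3 N-deficient libraries held 2 recovered reads together, against 264 in K deficiency, 84 in P deficiency and 447 in the control. Per read sequenced, the control level was 217 times that in N deficiency, with an exact 95% interval of 59.7 to 1798 that covers counting error only. The log2 fold change was -2.89 in N deficiency (SE 0.309, adjusted p = 8.36e-05) and -1.63 in P deficiency (SE 0.309, adjusted p = 0.00452). In K deficiency the difference from the control did not pass (adjusted p = 0.37). N deficiency was also below K deficiency (-2.38, adjusted p = 0.000754) and below P deficiency (-1.26, adjusted p = 0.0267). The call against P deficiency was lost with a pseudocount of 10, without any N-deficient library, or without P-deficient replicate 1_3 or 7_9 (adjusted p = 0.000429 to 0.32 over the alternatives).

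A pair of further NPF genes fell in P deficiency. LOC100384152, described as NPF6.1, had 9.61, 8.02 and 6.46 FPKM in N deficiency, 12.4, 10.9 and 19.5 FPKM in K deficiency, 4.47, 4.95 and 4.34 FPKM in P deficiency and 22.4, 9.49 and 14.1 FPKM in the control. The P-deficient libraries were lowest and close together. The control mean was 3.34-fold that in P deficiency (log2 fold change -1.47, SE 0.276, adjusted p = 0.00417), and N deficiency did not pass (adjusted p = 0.0675). The gene gpm152, described as NPF8.1, whose Arabidopsis counterpart PTR1 takes up dipeptides, had 23.6, 22.2 and 23.8 FPKM in N deficiency, 10.9, 15.3 and 14.7 FPKM in K deficiency, 5.76, 10.9 and 9.09 FPKM in P deficiency and 16.4, 22.9 and 11.8 FPKM in the control. N-deficient libraries were tight and overlapped the top control library, and P-deficient ones lay below the control. The gpm152 mean in N deficiency was 2.7-fold that in P deficiency (log2 fold change 1.38, SE 0.246, adjusted p = 0.00616). The control mean was 1.99-fold that in P deficiency (-0.91, SE 0.246, adjusted p = 0.0235), a call lost without P-deficient replicate 1_3 or control 1_3 or 4_6, in the fit of the 6 compared libraries and in the authors' deposited table (adjusted p 0.00814 to 0.139).

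**Figure D3:**
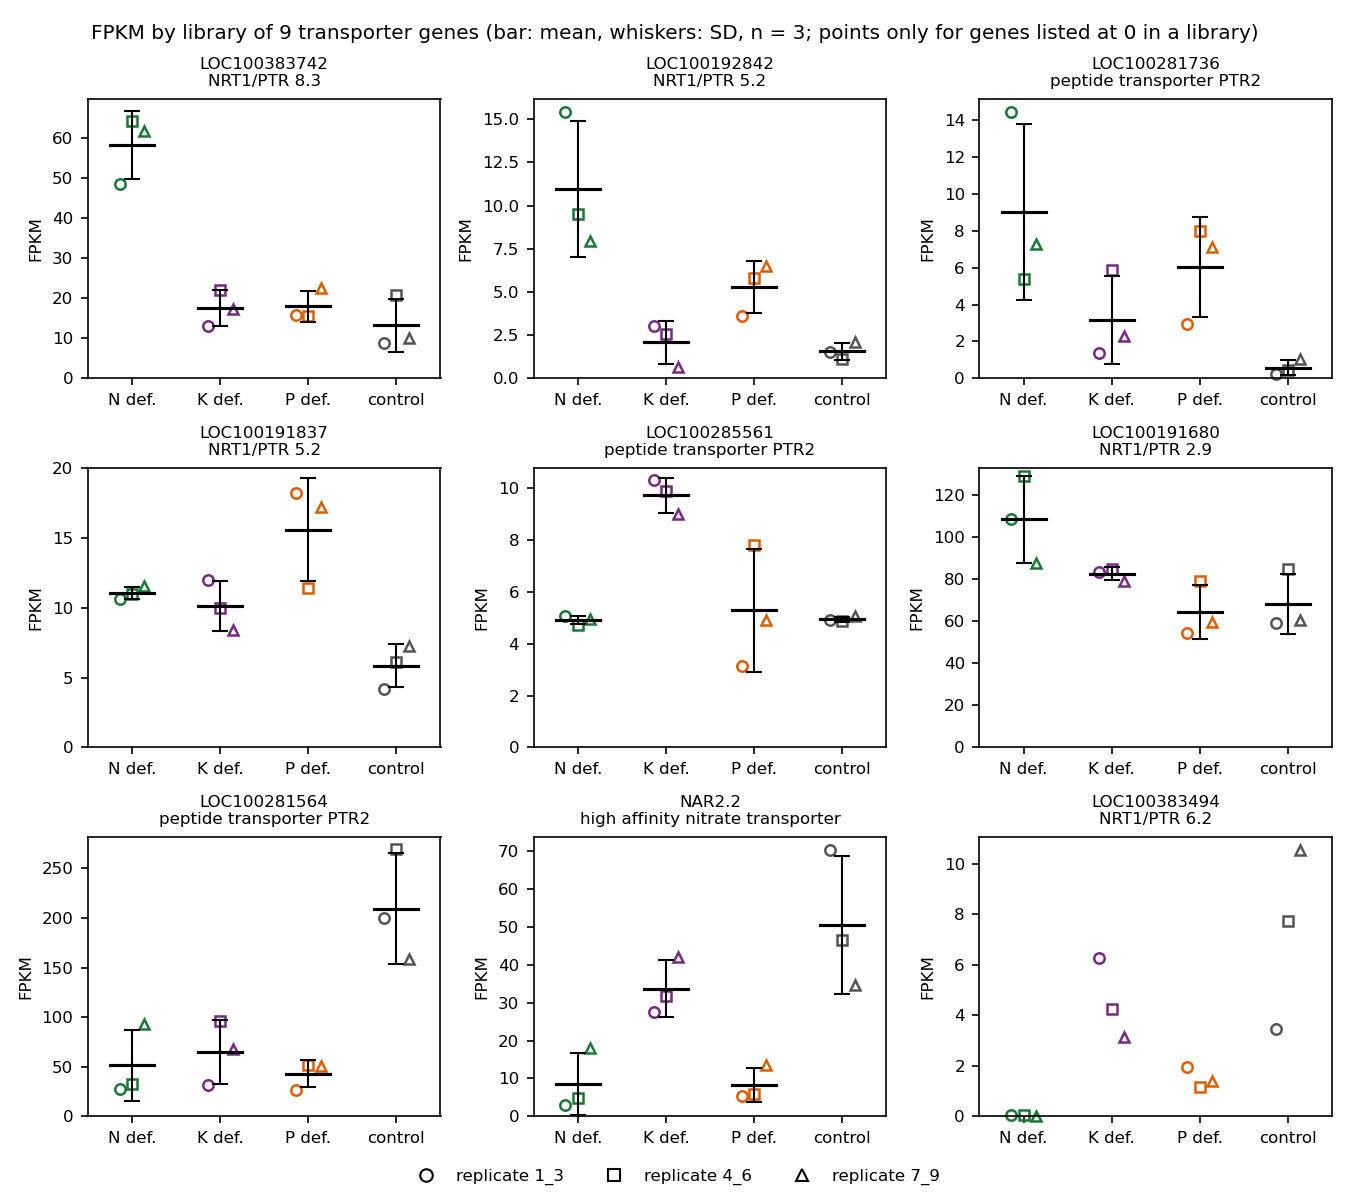
FPKM (vertical axis, from 0, its scale differing by panel) of 9 transporter genes in N, K and P deficiency (def.) and the control; each symbol is a library, with its shape giving the replicate label. Bars and whiskers are the mean and SD of 3 libraries, left out for LOC100383494, which is listed at 0 in a library. N-deficient libraries stand above all others for LOC100383742, at 48.4 to 64.2 FPKM, and below all others for LOC100383494.

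The 8 tested peptide transporters, all described as PTR2, moved in both directions. In N deficiency 1 rose and 1 fell (25% called, against 19.0% of all tested genes, a share near background). In K deficiency 1 rose and 1 fell (25%, against 8.72%), and in P deficiency 2 rose and 2 fell (50%, against 23.4%). LOC100281564 fell in all 3 deficiencies and was the only member called in all of them (1 of 33 members, 3.03%, against 4.47% of all tested genes). It had 28.0, 33.1 and 93.0 FPKM in N deficiency, 31.6, 96.0 and 67.9 FPKM in K deficiency, 27.1, 51.8 and 50.5 FPKM in P deficiency and 200.3, 269 and 159 FPKM in the control. Each control library exceeded every deficient library, and the deficient groups overlapped. The control mean was 4.08-fold that in N deficiency (log2 fold change -2.18, SE 0.484, adjusted p = 0.009), 3.21-fold that in K deficiency (-1.77, SE 0.484, adjusted p = 0.0443) and 4.86-fold that in P deficiency (-2.28, SE 0.484, adjusted p = 0.00804). The K call was lost in 7 alternatives, among them median-ratio scaling and leaving out K-deficient replicate 1_3 or 7_9 or any control library (adjusted p 0.00691 to 0.153).

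LOC100281736 had the largest fitted rise of any member in N and in P deficiency. It had 14.4, 5.40 and 7.28 FPKM in N deficiency, 1.36, 5.86 and 2.30 FPKM in K deficiency, 2.92, 7.995 and 7.13 FPKM in P deficiency and 0.232, 0.469 and 1.04 FPKM in the control. All 9 deficient libraries lay above the control libraries, from which 7 to 28 reads per library were recovered. The N deficiency mean was 15.6-fold that of the control (log2 fold change 2.60, SE 0.447, adjusted p = 0.00206) and the P deficiency mean 10.4-fold (2.095, SE 0.447, adjusted p = 0.00817), while K deficiency, at 5.49-fold, did not pass (adjusted p = 0.106).

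LOC100286106 rose in P deficiency, with 10.8, 4.96 and 3.83 FPKM in N deficiency, 3.64, 12.7 and 4.91 FPKM in K deficiency, 3.49, 18.1 and 13.0 FPKM in P deficiency and 1.94, 1.52 and 2.03 FPKM in the control. The control libraries were the lowest, and the deficient libraries spread widely. The rise in P deficiency was 6.28-fold (log2 fold change 1.91, SE 0.536, adjusted p = 0.0266), a call lost without P-deficient replicate 4_6 or 7_9 or control 1_3 or 4_6, with voom and in the authors' deposited table (adjusted p 0.00492 to 0.0864). N deficiency, at 3.56-fold, and K deficiency, at 3.85-fold, did not pass (adjusted p = 0.118 and 0.154).

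LOC100285561 was higher in K deficiency than in the control. It had 5.06, 4.74 and 4.96 FPKM in N deficiency, 10.3, 9.87 and 8.99 FPKM in K deficiency, 3.13, 7.81 and 4.91 FPKM in P deficiency and 4.90, 4.86 and 5.05 FPKM in the control. The K-deficient libraries were above all others, and the P-deficient ones were spread to either side of the control. The rise over the control was 1.97-fold (log2 fold change 0.85, SE 0.213, adjusted p = 0.0307), and N deficiency was below K deficiency (-0.86, adjusted p = 0.028). Leaving out any of the 6 compared libraries ended either call (adjusted p = 0.0104 to 0.0972 against the control and 0.00768 to 0.0906 against K deficiency, over all alternatives).

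LOC100281420 fell in P deficiency, with 4.35, 2.87 and 2.48 FPKM in N deficiency, 4.41, 5.08 and 4.37 FPKM in K deficiency, 1.34, 2.50 and 1.58 FPKM in P deficiency and 3.38, 2.89 and 3.73 FPKM in the control. The P-deficient libraries lay below the control ones and reached up to the lowest N-deficient one. The control mean was 1.84-fold that in P deficiency (log2 fold change -0.64, SE 0.19, adjusted p = 0.0325), lost without P-deficient replicate 1_3 or 7_9, without control 1_3 or 7_9, and in the fit of the 6 compared libraries (adjusted p = 0.0059 to 0.115).

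N deficiency was then set against the other shortages directly. Against K deficiency 6 of 33 members differed (18.2%, against 9.81% of all tested genes), 3 higher in N deficiency (3.88% of all tested genes) and 3 lower (5.93%). Against P deficiency 7 differed (21.2%, against 11.3%), 6 higher in N deficiency (5.80% of all tested genes) and 1 lower (5.47%). LOC100383742, LOC100272903 and LOC100383494 differed from K deficiency, P deficiency and the control in a single direction each, the first pair higher and the last lower in N deficiency. By mean FPKM, 13 of the 33 members were highest in N deficiency (39.4%, against 23.8% of all tested genes), and 15 were lowest in the control (45.5%, against 34.4%). By comparison with the control, 5 members were called in N deficiency alone (15.2%, against 7.75% of all tested genes) and 5 in N and P but not K deficiency (15.2%, against 5.38%). Another 5 were called in P deficiency alone (15.2%, against 12.5%, a share near that of all genes). A call in a single deficiency does not itself show a difference between deficiencies.

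The make-up of the transporter transcripts differed between the groups. The summed FPKM of the 36 genes was 580 to 625 in N deficiency (median 600), 413 to 557 in K deficiency (median 534), 321 to 457 in P deficiency (median 433) and 507 to 746 in the control (median 580), so that only the P-deficient libraries lay wholly below the control. LOC100281564 made up 4.82% to 15.5% of the sum in N deficiency, 7.65% to 17.2% in K deficiency, 8.42% to 11.7% in P deficiency and 31.3% to 36.1% in the control. LOC100383742 made up 8.34% to 10.3% in N deficiency, 3.17% to 3.97% in K deficiency, 3.41% to 5.2% in P deficiency and 1.52% to 2.78% in the control. The LOC100281729 share was on average 23.2% in N deficiency, 15.8% in K deficiency, 21.5% in P deficiency and 12.9% in the control. The NAR2.2 share averaged 1.43%, 6.73%, 2.04% and 8.38%, and that of LOC100191680 averaged 18%, 16.8%, 16% and 11.2%, in the same order of groups. N-deficient libraries thus held larger shares of LOC100281729, LOC100191680 and LOC100383742 on average, and smaller ones of LOC100281564 and NAR2.2, than control libraries. A share also depends on the other members, so that it can rise without a rise in level. In P deficiency LOC100281729 averaged 86.2 FPKM (83 FPKM in the control) and LOC100191680 averaged 64.4 FPKM (68.2 FPKM in the control). The 18 NPF genes summed to 245 to 306 FPKM in N deficiency, 209 to 213 in K deficiency, 147 to 214 in P deficiency and 178 to 201 in the control. The 9 peptide transporters summed to 89.9 to 138, 90.0 to 174, 65.9 to 126 and 202 to 324 FPKM in the same order.

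**Figure D4:**
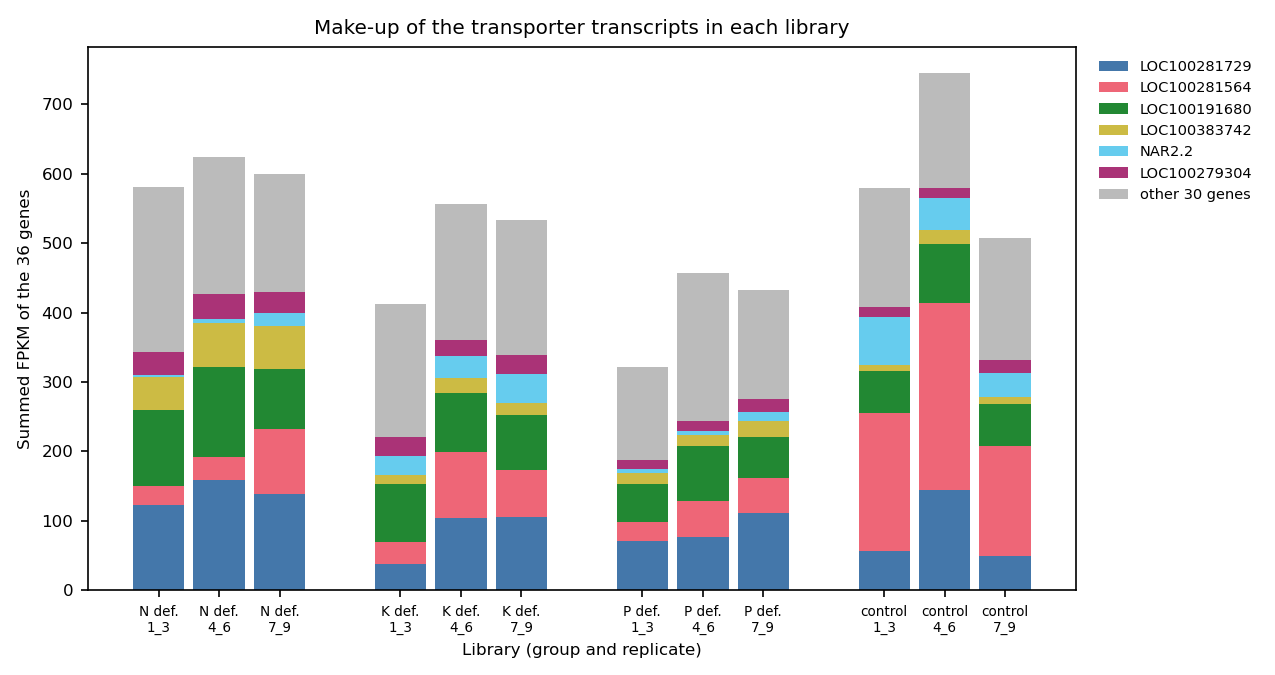
Summed FPKM of the 36 transporter genes in each library (bars from 0), split into the 6 genes with the highest mean and the other 30. Libraries are ordered N, K and P deficiency (def.) and control, with replicate labels. The LOC100281564 segment takes 31.3% to 36.1% of the control bars and at most 17.2% of any deficient bar.

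Replicate libraries differed widely for many members. In N deficiency 13 of the 33 had a highest library over 2 times the lowest (39.4%, against 20.2% of all tested genes), in K deficiency 12 (36.4%, against 19.2%), in P deficiency 10 (30.3%, against 19.8%) and in the control 11 (33.3%, against 22.2%). The groups did not overlap for 17 members in N deficiency against the control (51.5%, against 34.2% of all tested genes), for 10 in K deficiency (30.3%, against 28.0%) and for 12 in P deficiency (36.4%, against 39.2%). N deficiency did not overlap K deficiency for 14 members (42.4%, against 29.8%) or P deficiency for 11 (33.3%, against 33.6%). In the RefSeq table of assembly Zm-B73-REFERENCE-NAM-5.0, LOC542511 and NRT1.2 had 1 protein-coding gene between them, and LOC100274435 and LOC100281420 had 2.

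Other nitrogen genes were read from a list of 39, of which 35 were tested: enzymes of nitrate and ammonium assimilation, the high-affinity nitrate genes, amino acid and ureide carriers and nitrate-response regulators. In N deficiency 13 rose and 11 fell (68.6%, against 19.0% of all tested genes), in K deficiency 11 rose and 6 fell (48.6%, against 8.72%), and in P deficiency 6 rose and 10 fell (45.7%, against 23.4%). The list was chosen with earlier results of these data known. The genes nrt2, nrt2.2 and NAR2.1 were put on it by name and are among the 13 that rose in N deficiency. Without control 1_3 the K count was 3 and the P count 10, and over all single libraries left out the K count ran from 3 to 15. IDP64, described as NLP6 and thus of a family of nitrate-responsive transcription factors, averaged 0.929 ± 0.255 FPKM in N deficiency and 24.6 ± 2.96 FPKM in the control (log2 fold change -3.73, adjusted p = 1.71e-07). The glutamine synthetase gene gln2, whose product builds ammonium into glutamine, averaged 2.34 ± 0.855 FPKM in N deficiency, 7.29 ± 1.35 FPKM in P deficiency and 41.9 ± 8.4 FPKM in the control. It fell by 3.70 on the log2 scale in N deficiency (adjusted p = 1.55e-06) and by 2.37 in P deficiency (adjusted p = 3.65e-05).

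Amino acid and ureide carriers on that list moved in both directions. LOC100383250, described as amino acid permease 6, averaged 73.0 FPKM in K deficiency and 21.3 FPKM in the control (log2 fold change 1.73, adjusted p = 0.00039). Its mean was higher in N deficiency, at 120 FPKM (2.44, adjusted p = 1.16e-05), and it also rose in P deficiency, at 47 FPKM (1.09, adjusted p = 0.00336). The ureide permease gene TIDP3621 averaged 64.7 FPKM in K deficiency and 28.3 FPKM in the control (1.16, adjusted p = 0.000805). It rose alike in N deficiency, at 64.4 FPKM (1.14, adjusted p = 0.000344). Among regulators, NLP8 averaged 1.89 FPKM in K deficiency and 0.608 FPKM in the control (0.85, adjusted p = 0.00382). NLP8 also rose in N deficiency, at 2.69 FPKM (1.19, adjusted p = 0.000164), and in P deficiency, at 1.41 FPKM (0.58, adjusted p = 0.0143). The P call for NLP8 was lost without control 1_3. The amino acid permease umc1272 averaged 28.7 FPKM in P deficiency and 115 FPKM in the control (-1.96, adjusted p = 0.000152). It was called in N and K deficiency as well. The K call for umc1272 was lost without K-deficient replicate 1_3 or 4_6 or control 1_3 (adjusted p = 8.13e-05 to 0.0753 over the alternatives). LOC100217202, of the same description, averaged 13.5 FPKM in P deficiency and 38.7 FPKM in the control (-1.45, adjusted p = 0.000186). LOC100217202 also fell in N deficiency, at 16.1 FPKM (-1.23, adjusted p = 0.000446), and in K deficiency, at 23.2 FPKM (-0.715, adjusted p = 0.0231). The K call for LOC100217202 was lost without K-deficient replicate 1_3 or 7_9 or any control library. Another amino acid permease, LOC100284302, averaged 2.68 FPKM in the control. Its means were 0.14 FPKM in N, 0.879 FPKM in K and 0.158 FPKM in P deficiency. The log2 fold change was -1.68 in N deficiency (adjusted p = 0.00017) and -0.99 in K deficiency (adjusted p = 0.0111). In P deficiency it was -1.66 (adjusted p = 0.000255). Its K call was lost without control 1_3, with a pseudocount of 0.1 and in the fit of the 6 compared libraries (adjusted p = 0.00101 to 0.0741 over the alternatives).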

How the data were processed

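Each deposited table compares a deficiency with the control. Per-library values are FPKM per the file headers, and all 3 tables repeat the same control values. Group means are a deposited signal, reads divided by a size factor per library and averaged by the authors, who used DESeq per the file names. The authors' log2 fold change and adjusted p-value columns are deposited beside them. No aligner, counter, genome build or annotation is named in the sources used here. The number of per-library columns left unmatched to a sample was 0.

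Genes with at least 0.5 FPKM in at least 3 of 12 libraries were kept (24311 of 37385), and limma 3.58.1 in R 4.3.3, with an intensity trend, was fitted to log2(FPKM + 1) with group as its only term. The 5 comparisons were each adjusted over all tested genes (Benjamini-Hochberg, threshold 0.05). The planned count test was to be used if the files held read counts per library. They hold FPKM instead. Whole reads were recovered from the deposited group means for 100% of expressed control genes, 99.75% in K, 99.71% in N and 99.69% in P deficiency, and served for depth, for counts of low genes and for limma with voom weights. Between replicates the squared difference over its counting variance had a median over genes of 3.19 to 6.79 in the 12 pairs, so no library was a copy of another. The fits were tested on simulated data. Python 3.11.15, pandas 2.3.3, numpy 2.4.6, scipy 1.17.1 and matplotlib 3.10.9 were used. All 36 members were found in the RefSeq gene table, as were 87.4% of all identifiers, and no protein or promoter sequences are shown.

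The members and lists were chosen with earlier results of these data known. Library values are given by rule for 20 members: in each deficiency the up to 8 largest rises and falls among calls with a mean of at least 1 FPKM, the 6 highest means, all ammonium transporters, and members apart in N deficiency from all 3 other groups. The rule also took the 4 nitrogen list genes with the smallest p per deficiency. Alternatives were median-ratio scaling, filters, pseudocounts, voom, a replicate block, the 6 compared libraries alone, leaving out each library, and the authors' adjusted p.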

Additional observations from a re-analysis of the deposited data

How the results depend on the processing

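No called change of a single gene named here changed direction under any alternative. Differences that were not called were not checked in this way. Some small ones differed in sign in the authors' deposited table, such as LOC100281729 in P deficiency (log2 fold change 0.203 in limma, -0.01 deposited). Of the nitrogen list genes called in K deficiency, 7 were higher and 8 lower with voom, in place of 11 and 6. Of the 39 member calls in the 5 comparisons, 22 held under every alternative: 8 of 12 in N deficiency, 0 of 3 in K deficiency and 6 of 11 in P deficiency against the control, and 4 of 6 and 4 of 7 in N deficiency against K and P deficiency. With each library left out in turn, the number of members called ran from 9 to 13 in N deficiency, 0 to 2 in K deficiency and 6 to 10 in P deficiency against the control, from 4 to 5 for N against K deficiency and from 4 to 9 for N against P deficiency. The count of nitrogen list genes ran from 21 to 23, 3 to 15 and 10 to 16 in N, K and P deficiency, and was 10 in K deficiency, in place of 17, when only the 6 compared libraries were fitted. The K count of members was 0 without K-deficient replicate 1_3 and without control 1_3 or 4_6, and the P count was 6 without control 1_3. The cause was not tested. Replicate labels did not pair the libraries: 10 of 18 like-labelled pairs correlated above 0.1 (-0.39 to 0.33), and only 4 of 12 libraries had their best match under their own label. With the replicate block the member counts were 12, 3 and 11 against the control and 6 and 6 for N against K and P deficiency, and 24, 14 and 17 nitrogen list genes were called. Over all tested genes, the counts in the fits of the 6 compared libraries were 3304 for P deficiency, in place of 5691, and 1420 for N against P deficiency, in place of 2740, and the authors' deposited table called 3170 in P deficiency. Leaving out control 1_3 gave 2765, 987 and 2397 calls in N, K and P deficiency, in place of 4609, 2120 and 5691. Without control 7_9 the counts were 4411, 2329 and 6306 in the same order, above the main fit in K and P deficiency. The lowest counts for N deficiency against K and P deficiency, each with a library left out, were 1367, in place of 2384, and 1273. Depth limits statements on genes with few reads, such as LOC542511 and LOC100273369.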
